A study of Mus musculus with 6 samples.

Results

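Voltage-gated potassium channel (Kv) subunit genes were examined in mouse basolateral amygdala tissue, a region that links sensory input to fear and anxiety. A gene was taken as a Kv subunit when its symbol began with Kcn followed by a, b, c, d, f, g, h, q, s or v and a number. Of 26264 gene symbols 40 matched, and 36 of these held at least 60 counts over all libraries. The others were Kcnq1 with 28 counts, Kcnv2 with 5, Kcna10 with 4 and Kcna7 with 0. Just inside the minimum stood Kcnh8 with 88 counts and Kcng4 with 95, and then Kcng2. All 36 also passed the filter on low counts that decided which genes were tested, so no member was lost there.

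The study compared male mice under chronic restrained stress (CRS, in which the animal is held immobile repeatedly) with unstressed controls (Ctrl). There were 3 libraries of ribosomal RNA-depleted total RNA in each group, stated to be biological replicates. The sources used here give no strain, no age and no length of the stress. Nothing in the sources used here ties a library to a single animal, so the p-values below measure the spread between these libraries.

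As background, Kv subunits assemble as tetramers around a pore that opens on depolarisation and lets potassium leave the cell. They set the resting excitability of a neuron, the width of its action potentials and how fast it can fire again. Kv1 (Kcna) subunits hold back firing at axons, Kv2 (Kcnb) subunits carry the slow delayed rectifier of the cell body, Kv3 (Kcnc) subunits allow fast spiking, and Kv4 (Kcnd) subunits carry the A-type current of dendrites. Kv7 (Kcnq) subunits carry the M-current, which muscarinic receptors close. The Kcnh genes code for the EAG, ERG and ELK channels. The Kcnf, Kcng, Kcns and Kcnv subunits are electrically silent by themselves and modify Kv2 channels.

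Libraries held 9859449 to 10233706 counts in genes, and Kv members took 0.336 to 0.389% of them. The labelled tissue was checked against its markers: the vesicular glutamate transporter Slc17a7 lay between 719 and 1184 CPM (counts scaled to library size), with Camk2a and Sv2b also high, and none of the 12 glutamatergic markers was at 0 in all libraries. The 20 striatal and central amygdala markers, of which Pde10a, Penk and Meis2 were the most abundant, summed to 1185 to 2278 CPM in controls and 425 to 1293 CPM under stress. All 20 were lower under stress, 0 of them past an adjusted p of 0.05, and the lowest library was CRS 1, where Isl1 had no count. All 16 oligodendrocyte markers were lower under stress (median log2 fold change -0.38) and all 12 glutamatergic markers higher (median 0.23), again 0 of them past the threshold. Their sums were 2494 to 3948 CPM in controls and 1951 to 2840 CPM under stress for the first, and 2744 to 3844 and 3462 to 4031 CPM for the second. The 14 choroid plexus markers summed to 239 to 6862 CPM in controls and 149 to 9273 CPM under stress, low in Ctrl 3, CRS 1 and CRS 3. The most abundant of them, Ttr, stood at 18.9, 2.87 and 8.34 CPM in those libraries and at 2128 to 5553 CPM in the others. In bulk tissue, fewer cells of a type and less RNA per cell cannot be told apart.

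Levels of different genes were compared per kilobase (kb) of exon, as CPM divided by the length of all annotated exons of the gene. In controls the members spanned from 46.7 ± 2.73 CPM per kb for Kcna1 (SD, n = 3) to 0.276 ± 0.0957 for Kcnh8. Kcna1 codes for Kv1.1, an axonal subunit, and its control range per kb did not overlap with that of the next gene. This rank depends on the division by exon length. In CPM alone Kcna1 stood at 223 in controls, below members such as Kcna2 at 306 and Kcnq3 at 359. After Kcna1 in the order per kb came Kcnd2, a dendritic A-type subunit, at 36.6 ± 6.16 CPM per kb, and the silent subunit gene Kcnf1 at 34.0 ± 4.35. The silent subunit gene Kcnv1 followed at 29.5 ± 4.49. Further down stood Kcna2 at 25.7 ± 4.75 and the M-current gene Kcnq3 at 24.4 ± 4.18. In this order 31 of the 35 neighbouring pairs overlapped in their control ranges, so most neighbours cannot be ranked. At 10 CPM per kb or more stood 19 members, and 7 were under 2 CPM per kb, among them Kcns3, Kcnh6, Kcng2, Kcnd1, Kcng4 and Kcnh8.

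The order was nearly the same under stress. The rank of 35 of 36 members differed by at most 2 places between the groups, and the largest shift was 3 places, for Kcnc4. Summed over the members, the level was 480 ± 33.4 CPM per kb in controls and 490 ± 39.5 under stress. The Kcna genes made up 26.8 ± 0.686% of this sum in controls and 26.1 ± 0.798% under stress, the largest share of any subfamily on this scale per kb. Kcnh genes held 12.9 ± 0.415% and 11.9 ± 2.44%. The 9 silent subunits together reached 89.3 ± 9.03 CPM per kb in controls and 93.1 ± 12.1 under stress.

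**Figure D1:**
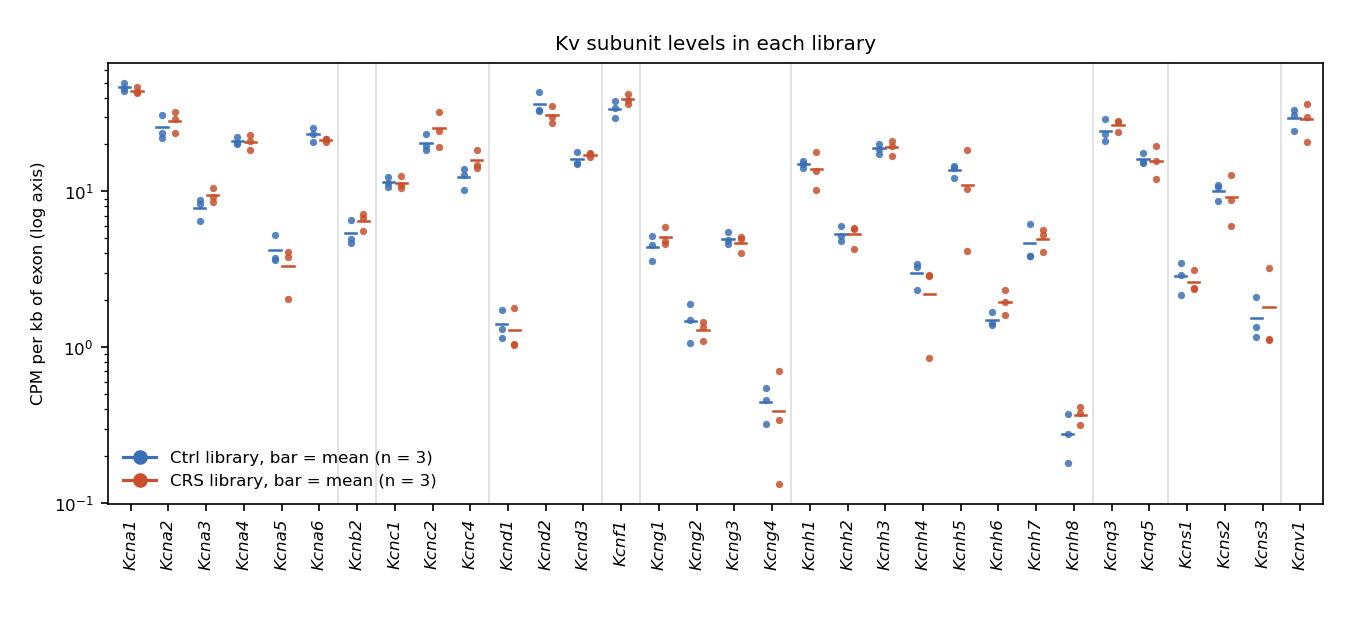
Level of each Kv subunit gene in CPM per kb of exon (log axis), with 1 point per library, control in blue and stress in orange, and a bar at each mean. Kcna1 is highest at 46.7 CPM per kb in controls and Kcnh8 lowest at 0.276, and the single low points of Kcnh4, Kcnh5 and Kcna5 under stress are all CRS 1.

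The comparison asked whether stress changed the Kv subunit genes. None of the 36 did so past the threshold: by edgeR's quasi-likelihood test 0 reached an adjusted p below 0.05, and of the 14739 genes tested 0% did. At an unadjusted p under 0.05 there was 1 member (2.78%), against 3.37% of all genes. That member, Kcnc4, was higher under stress, where 1.33% of all genes were called, and 0 members were called lower, against 2.04% of all genes. The groups did not overlap for 2 members, among them Kcnc4, which is 5.56% of the members against 8.28% of all genes. Both lay higher under stress (3.80% of all genes), and 0 members lay wholly lower (4.48%). With all libraries kept, these shares are near or under the background, so the members did not stand out by count in this fit.

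Of the 36 members 17 had a log2 fold change above 0 and 19 below, with a median of -0.01, beside a median of -0.0044 over all tested genes. The values ran from -0.43 for Kcnh4 to 0.41 for Kcnh8, so 0 members moved by over 0.5 on the log2 scale, against 4.54% of all genes. The median size of the change, without its sign, was 0.143 for the members and 0.0878 for all genes. The 95% intervals show what 3 libraries a group could exclude. For 31 members the interval lay within a 2-fold change in either direction, and for 19 within a 1.5-fold change. The 5 wider intervals belonged to Kcnh4, Kcnh5, Kcnh8, Kcng4 and Kcns3, of which Kcnh8 and Kcng4 were the least counted members. Standard errors ran from 0.07 for Kcna1 to 0.53 for Kcnh5, which held 2999 counts in all. DESeq2 and limma-voom likewise called 0 members. The count at an unadjusted p under 0.05 moved with single control or stress libraries. It was 7 of 36 members without Ctrl 3, against 5.19% of all genes, and 4 of 36 without CRS 2 (6.43%). It was 3 without CRS 3 (3.99%), 2 without Ctrl 2 (3.20%), and 0 without Ctrl 1 (1.56%) or CRS 1 (2.54%). Wherever leaving out a library gave a count above 0, the members' share was above that of all genes.

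**Figure D2:**
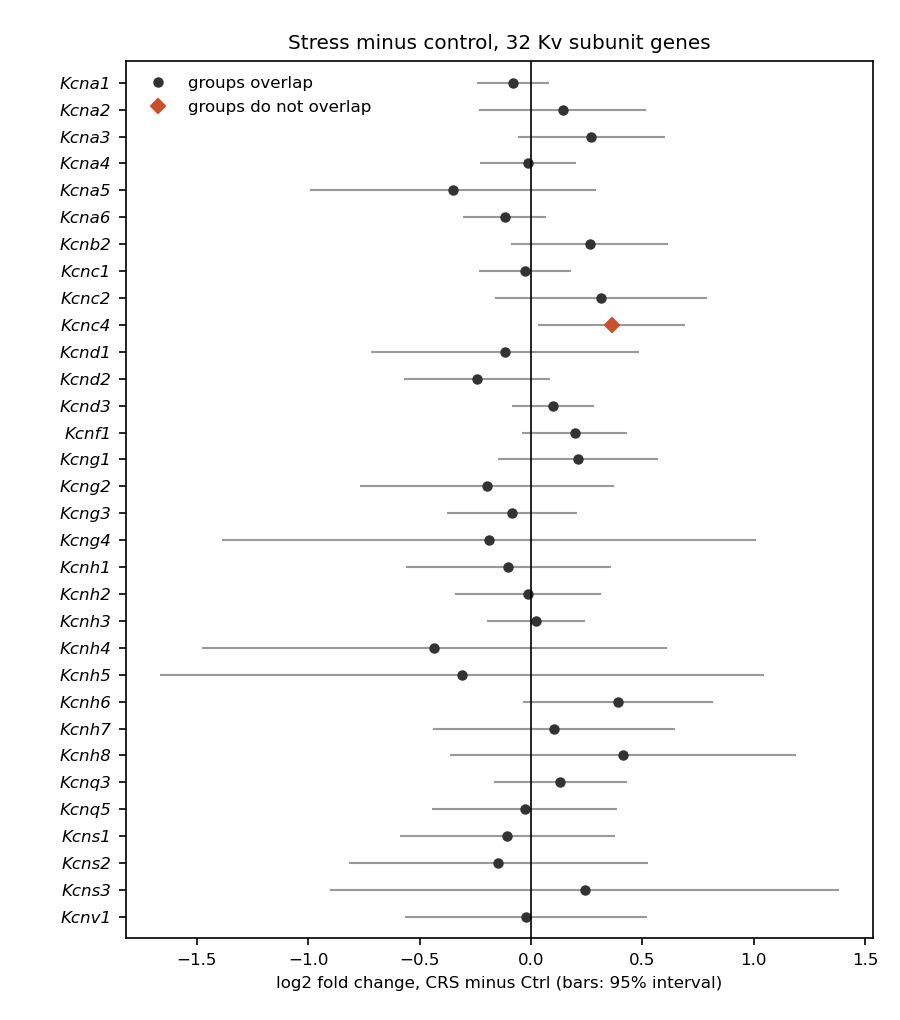
Log2 fold change, stress minus control, for 32 Kv subunit genes with 95% intervals from edgeR's quasi-likelihood fit. The diamond marks Kcnc4, whose groups did not overlap and whose interval, 0.03 to 0.69, excludes 0.

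Among the Kv3 genes, Kcnc4 codes for a fast-inactivating subunit. It was measured at 37.5, 46.8 and 51.0 CPM in controls 1 to 3 and at 67.7, 51.9 and 54.5 CPM in CRS 1 to 3. The lowest stress library stood 0.873 CPM above the highest control, so the groups were separate by a small margin, and CRS 1 was the highest library. The means were 45.1 ± 6.93 and 58.0 ± 8.46 CPM (SD, n = 3 each). The log2 fold change was 0.36 ± 0.14 (SE, 95% interval 0.03 to 0.69), with an unadjusted p of 0.0350 and an adjusted p of 0.997 in edgeR. It was 0.24 without CRS 1 and 0.12 with both Ctrl 1 and CRS 1 left out, and it was 0.13 with the striatal marker level as a covariate and 0.14 with the oligodendrocyte level. The unadjusted p was then 0.100, 0.251, 0.274 and 0.203 in edgeR. Leaving out each replicate in turn, the value ran from 0.24 without CRS 1 to 0.46 without Ctrl 3 (unadjusted p = 0.0201, adjusted p = 0.855, edgeR). With the choroid plexus level as a covariate it was 0.28.

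Kcnc2, the Kv3 subunit of many parvalbumin and somatostatin interneurons, stood at 132, 139 and 166 CPM in controls. It reached 232, 138 and 174 CPM in CRS 1 to 3, so CRS 2 lay within the control range, CRS 3 just above it and CRS 1 farthest above. Its log2 fold change was 0.32 ± 0.20 (-0.16 to 0.79), and 0.098 without CRS 1. It was 0.032 with both Ctrl 1 and CRS 1 left out, and 0.48 without CRS 2. With a marker level as a covariate it was 0.00028 (striatal), 0.14 (choroid plexus) and 0.033 (oligodendrocyte). The 12 GABAergic and interneuron markers did not rank alike in CRS 1. Pvalb, Sst and Erbb4 were highest there, at 12.2, 160 and 244 CPM. Gad1, Gad2, Slc32a1, Tac1 and Npy were lowest there, at 260, 167, 20.2, 11.9 and 40.2 CPM. Some gaps were small: Erbb4 was at 243 CPM in CRS 3, Pvalb at 11.2 in Ctrl 1 and Npy at 42.3 in Ctrl 2. The 12 markers summed to 1127 CPM in CRS 1, against 1263 to 1548 CPM in controls and 1185 to 1256 CPM in the other stress libraries. Their part in the Kcnc2 value was not tested. Kcnc1, the other main fast-spiking subunit gene, stood at -0.03 ± 0.09 on the log2 scale.

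The Kv1 genes spread around 0. Kcna1 was at 222, 211 and 237 CPM in controls and 206, 203 and 224 CPM under stress, overlapping groups with a log2 fold change of -0.08 ± 0.07 (-0.24 to 0.08). This was the narrowest interval of the members. Kcna2, its usual axonal partner, was at 0.14 ± 0.16, Kcna4, the inactivating Kv1 subunit, at -0.01 ± 0.09 and Kcna6 at -0.12 ± 0.08. Kcna3, which microglia and lymphocytes also use, was at 12.2, 15.7 and 16.7 CPM in controls and 16.3, 17.4 and 20.1 CPM under stress. Only the lowest stress library lay within the control range, and the log2 fold change was 0.27 ± 0.14 (-0.06 to 0.60). It was 0.14 with an oligodendrocyte covariate and 0.15 without Ctrl 1. The 10 microglia markers summed to 403 to 448 CPM in controls and 400 to 419 CPM under stress, and their part in the Kcna3 value was not tested. Kcna5, also found in vessels and glia, was at 15.1, 10.8 and 10.4 CPM in controls and 5.85, 11.7 and 10.9 CPM under stress, low in CRS 1 alone, with a log2 fold change of -0.35 ± 0.27. Without CRS 1 it was -0.10.

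Kcnb2, a Kv2 gene, stood at 71.1, 75.1 and 99.1 CPM in controls and 108, 84.1 and 102 CPM under stress, with overlapping groups. Its log2 fold change was 0.26 ± 0.15 (-0.09 to 0.61). The upper 3 libraries were Ctrl 3, CRS 1 and CRS 3, the libraries with the least Ttr. This split was not particular to Kcnb2: Kcna2, Kcnq3, Kcnh7, Kcnc2 and Kcnf1 were among other members that had it. Kcnh4 and Kcnh5 were among those that did not. Summed over all members, the level was 3907, 3714 and 3929 CPM in those libraries and 3333 to 3401 CPM in the others. The part of the choroid plexus content in this split was not tested. With a marker level as a covariate the log2 fold change of Kcnb2 was 0.12 (striatal), 0.14 (choroid plexus) and 0.046 (oligodendrocyte). It was 0.094 with both Ctrl 1 and CRS 1 left out, 0.17 without Ctrl 1 and 0.42 without Ctrl 3.

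Silent subunits that act on these channels showed no shared direction, with 3 of 9 above 0 and a median of -0.09. Kcnf1 stood at 141, 164 and 183 CPM in controls and 185, 174 and 202 CPM under stress. CRS 2 fell within the control range, and the log2 fold change was 0.20 ± 0.10 (-0.04 to 0.43). It was 0.11 without Ctrl 1, 0.11 with both Ctrl 1 and CRS 1 left out and 0.053 with the oligodendrocyte level as a covariate. Kcnv1, abundant in forebrain neurons, stood at 112, 141 and 152 CPM in controls and 94.7, 138 and 167 CPM under stress, where the stress libraries held both the lowest and the highest value (-0.02 ± 0.22). Kcns2 was at 61.5, 59.3 and 48.6 CPM in controls and 33.4, 49.0 and 70.7 CPM under stress, again with both extremes under stress (-0.15 ± 0.27). Kcns3, a silent subunit of parvalbumin interneurons, was at 3.68, 4.27 and 6.64 CPM in controls and 10.2, 3.53 and 3.58 CPM in CRS 1 to 3. CRS 1 was 2.34 times the mean of the other 5 libraries, and the fold change of 0.24 ± 0.48 became -0.45 without it. Kcns1 stood at -0.11 ± 0.21, Kcng1 at 0.21 ± 0.16, Kcng3 at -0.09 ± 0.13, and the sparsely counted Kcng2 and Kcng4 at -0.20 ± 0.25 and -0.19 ± 0.52. The lowest library of Kcng4 was CRS 2, at 0.504 CPM, which was 0.279 times the mean of the other 5 libraries.

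Of the Kv4 genes, Kcnd2 stood at 225, 169 and 172 CPM in controls and 141, 156 and 182 CPM under stress, with overlapping groups. Ctrl 1 was its highest and CRS 1 its lowest library, as for the striatal markers. The log2 fold change was -0.24 ± 0.14 (-0.57 to 0.09) and came to -0.01 with both of these libraries left out and -0.092 without Ctrl 1. With a marker level as a covariate it was -0.032 (striatal), -0.23 (choroid plexus) and -0.069 (oligodendrocyte). Kcnd3, which is expressed in many interneurons, was at 0.10 ± 0.08 and the rare Kcnd1 at -0.12 ± 0.26.

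For the M-current, Kcnq3 was at 0.13 ± 0.13 and Kcnq5 at -0.03 ± 0.17 on the log2 scale. Both had overlapping groups.

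**Figure D3:**
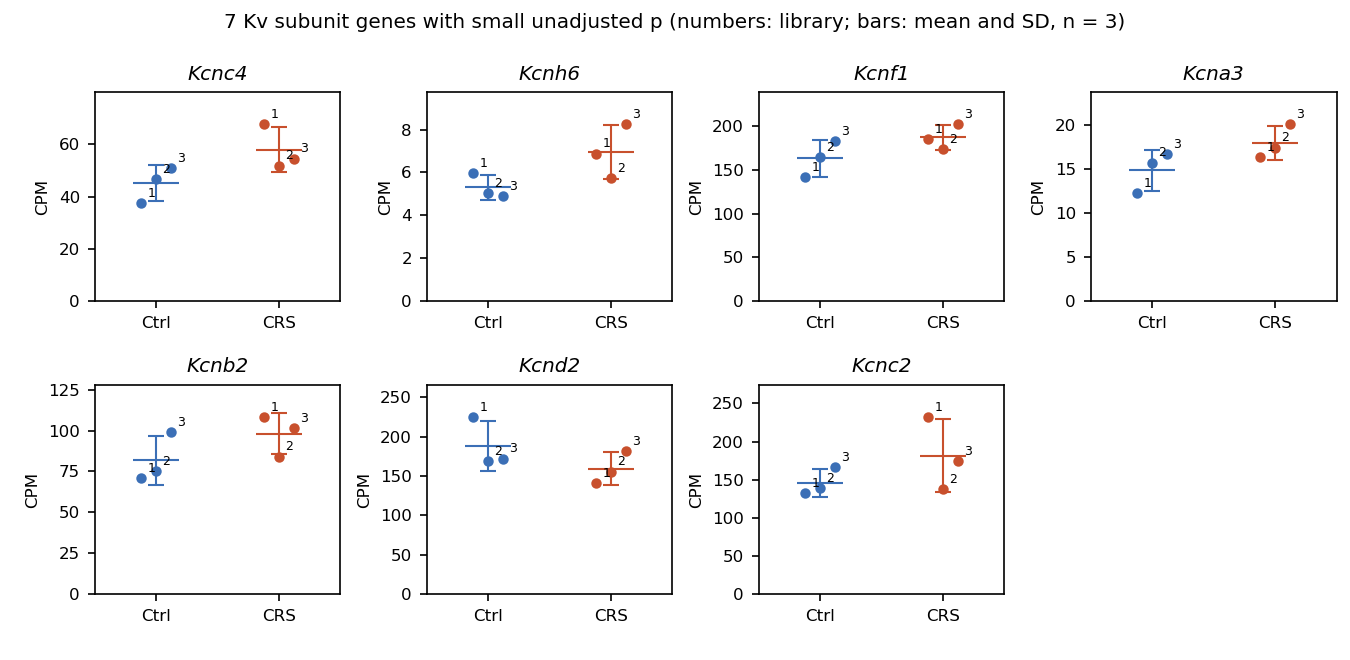
CPM in each library (points, numbered by library) with mean and SD (bars, n = 3) for 7 Kv subunit genes with small unadjusted p. Kcnc4 has separate groups, by 0.873 CPM, and the groups of the other 6 genes overlap.

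Among the Kcnh genes, Kcnh5 and Kcnh4 varied most between libraries, with a coefficient of variation over all libraries of 39.3 and 35.8%, below the 50.0% of Kcns3 and the 47.5% of Kcng4. Kcnh5, an EAG channel gene, was at 57.7, 49.4 and 58.8 CPM in controls and 16.7, 42.1 and 74.8 CPM in CRS 1 to 3. The 3 stress libraries thus lay below, just below and above the controls, and CRS 1 was 0.296 times the mean of the other libraries. Its log2 fold change of -0.31 ± 0.53 (-1.67 to 1.04) was 0.08 without CRS 1. Kcnh1, the other EAG gene, was at 103, 110 and 115 CPM in controls and 75.3, 99.6 and 131 CPM under stress, with the same order of the stress libraries (-0.10 ± 0.19). This order was not particular to the EAG genes: Kcnh3, Kcnq5, Kcns2, Kcnv1 and Kcnd2 were among other members that had it. Together the EAG genes stood at 28.6 ± 1.54 CPM per kb in controls and 24.9 ± 11.0 under stress, a larger SD at a similar mean.

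Kcnh4, an ELK channel gene, was at 13.4, 9.21 and 12.9 CPM in controls and 3.39, 11.5 and 11.3 CPM under stress. Only CRS 1 lay below the control range, at 0.291 times the mean of the other libraries, and the fold change of -0.43 ± 0.43 became -0.05 without it. Kcnh3, the abundant forebrain ELK gene, was at 0.02 ± 0.10, and Kcnh8 at 0.41 ± 0.34 on 88 counts in all. Of the ERG genes, Kcnh6 was at 5.96, 5.04 and 4.91 CPM in controls and 6.88, 5.74 and 8.24 CPM under stress. CRS 2 lay within the control range, and the log2 fold change was 0.39 ± 0.19 (-0.04 to 0.82), and 0.25 without CRS 3. Kcnh2 stood at -0.01 ± 0.14 and Kcnh7 at 0.10 ± 0.22.

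Promoter windows of 300 bases around the start were matched by symbol for 23 of the 36 members, in 28 windows from RefSeq (GRCm38.p6). They held a median of 20 CG dinucleotides, against 7 over 32851 windows of all genes. The GC box GGGCGG, searched on both strands, was in 18 of them (64.3%, against 35.7% of all windows). These shares and medians count windows, and Kcnc2, Kcnq5 and Kcns3 had several windows each. By gene, 17 of the 23 held a GC box in at least 1 window, and no such share was taken over all genes. The TATA box TATAAA was in 0 of 28 (13.6% of all), the cAMP response element TGACGTCA in 0 (1.79%), the AP-1 site TGANTCA in 0 (7.81%) and the E box CACGTG in 1, that of Kcnh4 (7.15%). A match is a description of the letters alone. The 250 bases upstream of the start are shown for the EAG genes Kcnh1 (chr1:192190527-192190776, plus strand) and Kcnh5 (chr12:75177333-75177582, minus strand). They are also shown for Kcnf1 (chr12:17176889-17177138, minus strand), the most abundant silent subunit. Each is written 5′ to 3′ with the GC box in capitals. Kcnh1 holds 17 CG dinucleotides and 1 GC box, Kcnh5 16 and 1, and Kcnf1 1 and 0.
Kcnh1: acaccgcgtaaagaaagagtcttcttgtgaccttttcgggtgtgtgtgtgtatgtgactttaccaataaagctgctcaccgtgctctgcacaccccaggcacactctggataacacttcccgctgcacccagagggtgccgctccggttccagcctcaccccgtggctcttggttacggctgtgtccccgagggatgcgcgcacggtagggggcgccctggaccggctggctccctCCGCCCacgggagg
Kcnh5: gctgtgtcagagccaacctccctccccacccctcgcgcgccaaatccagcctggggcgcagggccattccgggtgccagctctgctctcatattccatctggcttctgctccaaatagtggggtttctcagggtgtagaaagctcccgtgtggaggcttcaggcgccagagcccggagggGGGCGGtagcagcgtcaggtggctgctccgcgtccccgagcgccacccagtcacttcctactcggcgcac
Kcnf1: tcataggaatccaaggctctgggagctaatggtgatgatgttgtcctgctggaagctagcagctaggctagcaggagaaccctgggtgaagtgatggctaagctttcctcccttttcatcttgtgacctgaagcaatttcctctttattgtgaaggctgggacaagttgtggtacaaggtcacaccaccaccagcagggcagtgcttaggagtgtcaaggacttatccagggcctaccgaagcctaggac

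CRS 1 was the library that most often stood apart. It was farthest from the mean of the other 5 libraries in 14 of the 36 members (38.9%), against 28.5% of all tested genes. In 10 of these it lay below (27.8%, against 14.5% of all genes): Kcnh1, Kcnh2, Kcnh3, Kcnh4, Kcnh5, Kcna5, Kcng3, Kcnq5, Kcns2 and Kcnv1. In 4 it lay above (11.1%, near the share of all genes), among them Kcnc2, Kcns3 and Kcnd1. Without CRS 1, 23 of the 36 members had a log2 fold change above 0 and the median was 0.07, beside a median of -0.0060 over all tested genes. CRS 1 also had the lowest striatal, oligodendrocyte and GABAergic marker levels and the highest glutamatergic level (4031 CPM summed over the markers). Its choroid plexus level was the lowest too, at 149 CPM, close to the 163 CPM of CRS 3. The part of these differences in the Kv values was not tested beyond the fits that carry a marker level as a covariate. With a marker level as a covariate the number of members above 0 was 25 of 36 for the striatal level, 16 for the choroid plexus level and 14 for the oligodendrocyte level, so it moved in both directions from 17. In the same order the member medians were 0.075, -0.045 and -0.043, beside -0.0035, -0.0016 and -0.00057 over all tested genes.

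**Figure D4:**
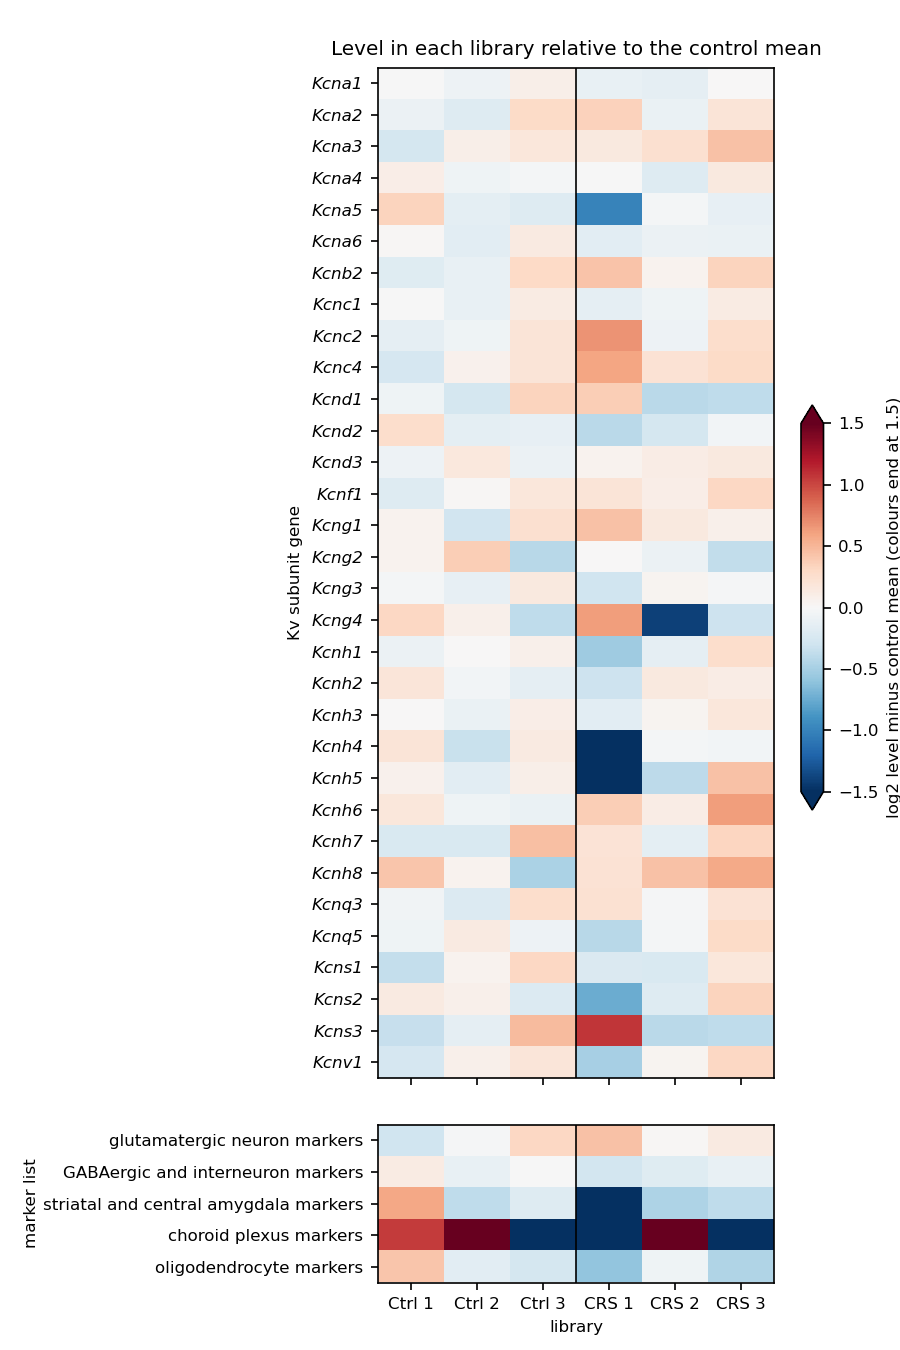
Level of each Kv subunit gene (upper block, log2 of CPM plus 0.2) and of 5 marker lists (lower block, mean log2 CPM) in each library, minus the control mean; red is higher, blue lower, and colours end at 1.5. CRS 1 shows the deep blue of Kcnh4 and Kcnh5 at 0.291 and 0.296 times the other libraries, next to its low striatal and choroid plexus markers.

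Accessory subunits tune these channels: KChIP and DPP proteins bind Kv4, beta subunits bind Kv1, KCNE peptides bind several, and AMIGO1 binds Kv2. Of 15 listed genes 11 were tested, 0 passed the threshold, 7 lay above 0 and 4 below, with a median of 0.03. The smallest unadjusted p was that of Kcnip2, a KChIP. It stood at 121, 98.9 and 111 CPM in controls and 69.4, 82.5 and 90.5 CPM under stress, so every stress library was below every control. The log2 fold change was -0.45 ± 0.11 (-0.71 to -0.19), with an unadjusted p of 0.00423 and an adjusted p of 0.997 in edgeR. Kcnip2 was lower under every alternative run, between -0.54 and -0.26, and was -0.28 with both Ctrl 1 and CRS 1 left out and -0.26 with the striatal covariate. Kcnip2 was the 1 tested accessory gene of 11 with separate groups (9.09%, against 8.28% of all genes). It was also the 1 at an unadjusted p under 0.05 (9.09%, against 3.37% of all genes). Of the Kv4 genes, Kcnd2 and Kcnd1 had the same sign with overlapping groups and Kcnd3 the opposite sign, as given above.

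Kcnip3, also called calsenilin, pointed the other way, at 95.6, 99.9 and 123 CPM in controls and 163, 112 and 130 CPM under stress (0.35 ± 0.16, overlapping groups, and 0.19 without CRS 1). The Kv1 beta subunit gene Kcnab1 was at -0.29 ± 0.17, and -0.11 without Ctrl 1. The abundant Kv4 partners Dpp6 and Dpp10 were at 0.07 ± 0.07 and 0.08 ± 0.08, and Amigo1 at 0.02 ± 0.08. Kcne2, a partner found in choroid plexus, stood at 9.14, 17.8 and 0.511 CPM in controls and 0.103, 22.8 and 0.397 CPM under stress, high in the 3 libraries with high Ttr and low in the others.

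Among 11 genes that cluster or anchor Kv channels 0 passed, with 5 above 0, 6 below and a median of -0.01. The 3 with the smallest unadjusted p were Lgi1, which codes for a secreted partner of presynaptic Kv1 complexes, at 0.13 ± 0.09, the scaffold gene Dlg2 at 0.09 ± 0.08 and Epb41l3 at -0.06 ± 0.06. Of 45 other potassium and HCN channel genes 35 were tested, 0 passed, 17 lay above 0 and 18 below, with a median of -0.02. Kcnma1, the BK channel gene, stood at 250, 285 and 301 CPM in controls and 351, 299 and 352 CPM under stress. Only CRS 2 fell within the control range, and the log2 fold change was 0.26 ± 0.10 (unadjusted p = 0.0250, adjusted p = 0.997, edgeR). It was 0.11 with the oligodendrocyte level as a covariate, 0.15 with both Ctrl 1 and CRS 1 left out and 0.17 with the striatal level. Kcnj10, the inward rectifier of astrocytes and oligodendrocytes, stood at 49.8, 43.0 and 49.2 CPM in controls and 46.3, 33.1 and 30.3 CPM under stress (-0.37 ± 0.16), and at -0.58 without CRS 1. Kcnj3, a subunit of the G protein-gated rectifier, was at 0.20 ± 0.11, and 0.03 with both Ctrl 1 and CRS 1 left out.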

How the data were processed

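For each library the authors deposited a table of raw counts for 26264 gene symbols. Per the submitters' processing notes, the tools were HTSeq 0.13.5, edgeR 3.42.4, STAR 2.7.7a and FastQC 0.12.1 and the build was mm39, with no roles given. The libraries were made with a stranded kit, per the labels' protocols. Which annotation was used, and whether counting used strand, is not given in the sources used here. In GENCODE M21, 8 members, among them Kcna6, Kcnd3, Kcng2, Kcnh3, Kcnh7 and Kcnq5, share exon bases with a gene on the other strand, so their counts may hold its reads. Between 53.0 and 57.4% of reads fell in no gene, and 6.97 to 8.16% aligned to several places. Both stayed out of library sizes and tests.

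The 14739 genes kept by filterByExpr (minimum count 10, minimum total 15) were fitted in R 4.3.3 with edgeR 4.0.16, with TMM scaling and the robust quasi-likelihood F test for stress minus control. The p-values were adjusted by the Benjamini-Hochberg method over all tested genes, with a threshold of 0.05. Standard errors were obtained by dividing the size of the log2 fold change by the root of F, and CPM uses TMM-scaled library sizes. Log2 CPM levels use a prior count of 2. Exon lengths come from GENCODE M21 on GRCm38, a build other than that of the counts, so levels per kb are approximate. DESeq2 1.42.0 and limma 3.58.1 were alternatives, and the procedure was tested on simulated counts.

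Counts and sums cover all 36 members, of which 4 are not reported here by name. The others were named. Those with the 8 smallest p or with separate groups, and some of those with a library far from the rest, were given by library. The sparsely counted Kcng4 and Kcnh8 were not given in every library. The 3 genes of smallest p were named in each pathway list, and the 3 most abundant of the glutamatergic and striatal marker lists. Members given by library for a single library that stood apart, and Dpp6, Dpp10, Amigo1, Kcne2 and the interneuron markers were named after their values were seen, as were the motifs searched. The members and lists were chosen with earlier results of these data known.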

Additional observations from a re-analysis of the deposited data

How the results depend on the processing

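No member passed an adjusted p of 0.05 under any alternative run. Over all genes the count was 0, with 2 in DESeq2 (Hpca and Ndst4) and 1 without Ctrl 3 (Rn18s, a ribosomal RNA gene), so leaving out single replicates gave 0 to 1. Of the members, 14 kept their direction in all alternatives and 22 turned in at least 1. The values given here are log2 fold changes, stress minus control, that turned. With both Ctrl 1 and CRS 1 left out they were -0.0096 for Kcna2, 0.033 for Kcna4, 0.093 for Kcna5, 0.021 for Kcnc1, 0.036 for Kcnh1, 0.21 for Kcnh2, 0.048 for Kcnh4, 0.11 for Kcnh5, -0.047 for Kcnh7, 0.10 for Kcnq5, 0.15 for Kcns2, -0.61 for Kcns3 and 0.054 for Kcnv1. With the striatal level as a covariate they were -0.0049 for Kcna2, 0.017 for Kcna4, 0.14 for Kcna5, 0.054 for Kcnc1, 0.045 for Kcng3, 0.13 for Kcnh1, 0.23 for Kcnh2, 0.24 for Kcnh4, 0.32 for Kcnh5, 0.18 for Kcnq5, 0.22 for Kcns2, -0.71 for Kcns3, 0.18 for Kcnv1 and -0.0078 for Lgi1. With the choroid plexus level they were 0.063 for Kcnh2, -0.061 for Kcnh7, 0.0015 for Kcnq5 and -0.12 for Kcns3. With the oligodendrocyte level they were -0.050 for Kcna2, 0.019 for Kcna5, 0.18 for Kcnh2, -0.16 for Kcnh7 and -0.38 for Kcns3. Leaving out each replicate in turn, the lowest and highest values were -0.097 to 0.076 for Kcna4, -0.11 to 0.036 for Kcnc1, -0.42 to 0.070 for Kcnd1, -0.38 to 0.025 for Kcng2, -0.15 to 0.0093 for Kcng3, -0.90 to 0.22 for Kcng4, -0.33 to 0.077 for Kcnh1, -0.088 to 0.12 for Kcnh2, -0.054 to 0.11 for Kcnh3, -0.91 to 0.081 for Kcnh5, -0.0095 to 0.37 for Kcnh7, -0.22 to 0.14 for Kcnq5, -0.27 to 0.060 for Kcns1, -0.46 to 0.084 for Kcns2, -0.45 to 0.53 for Kcns3 and -0.22 to 0.17 for Kcnv1. The cause was not tested. Other scalings, filters, tools and member minimums turned no member. The replicate block (same-numbered libraries as pairs) left 0 calls and a member median of -0.02, and Kcnc4 stood at 0.36 with an unadjusted p of 0.0797 in edgeR. Deviations of same-numbered libraries correlated at -0.32, 0.53 and 0.28, and not every library correlated best with its own number, so the numbers were not taken as pairs. With 3 libraries a group and under 100 counts in all, Kcnh8 and Kcng4 are limited by depth.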
